A study of Homo sapiens with 4 samples.

Results

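The 40 genes described here encode the core of the NF-κB pathway, a signalling system that links cell-surface receptors to inducible transcription, together with some of its feedback genes. They were taken from the deposited expression table by gene symbol, and all 40 were found among the 20804 genes listed. RNA was sequenced from MDA-MB-231, an established human line of triple-negative breast cancer, in 2 libraries labelled miR-3662-KO (KO) and 2 labelled WT. The shared background of both groups is the parental line, and the labels name no treatment, time or clone and do not say what was done to the microRNA locus. The column names of the KO libraries share a stem that is not explained, so whether both came from a single clone is not known. Differences tied to the KO label and differences between clones or cell lines cannot be told apart in these libraries. The title of the series names CRISPR interference and activation, and its design text names cells sorted on microRNA activity, so the exact meaning of KO is uncertain. The microRNA itself was not measured in these libraries, so the label KO could not be checked on it. Nothing in the labels says that the libraries came from separate cultures, and the p-values therefore reflect the spread between these 4 samples alone, a spread that could be technical.

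NF-κB is a family of dimers built from the subunits RELA, RELB, REL, NFKB1 and NFKB2. In the canonical branch, IκB proteins hold the dimers in the cytoplasm until the IKK kinase complex marks them for degradation. In the non-canonical branch, the kinase encoded by MAP3K14 (NIK) accumulates once the TRAF and cIAP proteins that degrade it are disabled, and it drives the processing of the NFKB2 precursor, whose product pairs with RELB. Several inhibitors and subunits are themselves NF-κB targets, which gives the pathway its feedback loops. MDA-MB-231 is known as a breast line with constitutive NF-κB activity.

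Values are FPKM, that is, fragments scaled by transcript length and by library size, so levels can be compared between genes. FPKM summed to 528986 and 544650 in the KO libraries and to 504102 and 520527 in the WT libraries, and the read depth behind them is unknown. Vimentin and 4 other genes typical of the line summed to 2081 and 1966 FPKM in KO and 1817 and 1991 in WT, while ESR1 did not exceed 0.01 FPKM and ERBB2 lay between 8.55 and 11.44 FPKM. CAV1, 1 of those 5 genes, had 442.8 and 449.72 FPKM in KO and 178.92 and 170.49 in WT. The summed markers of white blood cells, endothelial cells and fibroblasts each stayed at or under 1.54 FPKM per library. PTPRC and CD3E, which define white blood cells, were listed at 0 in every library. Of the epithelial markers, KRT19 lay between 13.99 and 26.51 FPKM and CDH1 did not exceed 0.03 FPKM. EPCAM had 0.34 and 0.05 FPKM in KO and 1.08 and 1.15 in WT. Fewer cells with a transcript and less transcript per cell cannot be told apart in such samples.

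The sequences below show what several of these genes share in front of their start sites. In the 250 bases upstream of each annotated start (RefSeq, GRCh38.p14), the NF-κB consensus, searched on both strands, was found in 12 of the 35 members that the promoter table holds (34.3%), against 748 of 9400 tested genes (7.96%) and 1828 of 35116 promoters in the table (5.21%). Overlapping matches were merged. Of these 35, it was found in 5 of 9 members that were higher in KO, in 1 of 3 that were lower and in 5 of 21 that did not pass the test. A match describes these letters and is not evidence of binding in these cells. The members were listed as NF-κB pathway and feedback genes, and several are known NF-κB targets. Their higher share of matches is therefore a description and tests nothing. The matches of the members that rose are shown with flanking bases, or alone for 11-base matches, written on the gene's strand with the match in capitals. The numbers give its first base counted back from the start site.
NFKB2 (chr10:102394328-102394577, plus strand), -107: GGGAATTCCCC
NFKB2 (same window), -78: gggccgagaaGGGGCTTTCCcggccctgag
NFKB2, second start (chr10:102395455-102395704, plus strand), -176: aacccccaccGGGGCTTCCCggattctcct
NFKB2, second start, -21: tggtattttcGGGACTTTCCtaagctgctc
BIRC3 (chr11:102317234-102317483, plus strand), -199: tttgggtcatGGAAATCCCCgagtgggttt
BIRC3 (same window), -135: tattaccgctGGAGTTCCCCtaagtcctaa
NFKBIA (chr14:35404750-35404999, minus strand), -81: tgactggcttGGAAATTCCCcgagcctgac
NFKBIZ (chr3:101827740-101827989, plus strand), -223: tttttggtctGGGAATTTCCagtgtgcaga
NFKBIZ, second start (chr3:101849264-101849513, plus strand), -239: gcgcgctgtcGGGGTTTCCCggtgaagggc
TNIP1 (chr5:151081035-151081284, minus strand), -42: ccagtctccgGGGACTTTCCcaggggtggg

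The same consensus stands in front of members that fell or did not pass, and some of these matches are shown here for contrast. CD83 and CYLD, which did not pass, also hold matches that are not shown. The part of these matches in the differences between KO and WT was not tested.
NFKBIB, lower in KO (chr19:38899719-38899968, plus strand), -28: GGGAATTTCCC
NFKB1, did not pass (chr4:102501109-102501358, plus strand), -49: cgacgtcagtGGGAATTTCCagccaggaag
TNFAIP3, did not pass (chr6:137867009-137867258, plus strand), -67: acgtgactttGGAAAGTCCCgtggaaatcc
TNFAIP3 (same window), -55: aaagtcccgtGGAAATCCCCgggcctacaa
TRAF3, did not pass (chr14:102777199-102777448, plus strand), -33: cgggcgcgccGGGGATTTCCagcgcgcgag

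NFKB2 holds 4 separate matches over its 2 annotated starts, the most of the 35 members searched. RELB, SHARPIN, NFKBIE, IKBKB and RIPK2 were not searched. BIRC3, the member with the largest rise, holds 2, and the whole stretch in front of its start is given to show their spacing.
BIRC3, chr11:102317234-102317483, plus strand: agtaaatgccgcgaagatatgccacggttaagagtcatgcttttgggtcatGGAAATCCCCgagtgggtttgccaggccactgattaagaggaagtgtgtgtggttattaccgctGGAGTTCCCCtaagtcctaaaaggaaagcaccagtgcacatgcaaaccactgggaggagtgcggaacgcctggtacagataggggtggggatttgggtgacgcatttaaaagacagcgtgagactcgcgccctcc

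The subunits NFKB2 and RELB, the kinase gene MAP3K14, the adaptor TRAF1 and the ubiquitin ligase BIRC3 rose in KO, as did the inhibitors NFKBIA and NFKBIE, while the adaptors TRAF2 and TAB2 and the inhibitor NFKBIB fell. RELA, NFKB1 and the core IKK genes did not pass the test. Of the 40 members, 38 reached at least 1 FPKM in 2 or more libraries and were tested with limma on log2(FPKM + 1). At an adjusted p under 0.05, 12 were higher and 3 lower in KO and 23 did not pass. The share of members called was 39.5%, against 27.0% of the 11786 genes tested, of which 16.2% were higher and 10.8% lower. Members were chosen with earlier results of these data known, so this difference in shares is a description and does not test the pathway. The median log2 fold change was 0.18 over the members and 0.07 over all tested genes.

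With median-of-ratios scaling of the 4 libraries, 11 members were higher and 3 lower. Over all genes, calls moved to 1557 higher and 1613 lower under that scaling, against 1906 and 1278 without it. With the filter on low values left out, 4 of 40 members were called (3 higher, 1 lower), beside 2.65% of all genes, and the other 11 had adjusted p between 0.0508 and 0.106. Those 4 were BIRC3, NFKB2, SHARPIN and TRAF2, which also passed under every other alternative tried. The KO values lay both above the WT values in 16 tested members and both below in 9. That share is close to the 68.0% of all tested genes whose groups did not overlap.

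**Figure D1:**
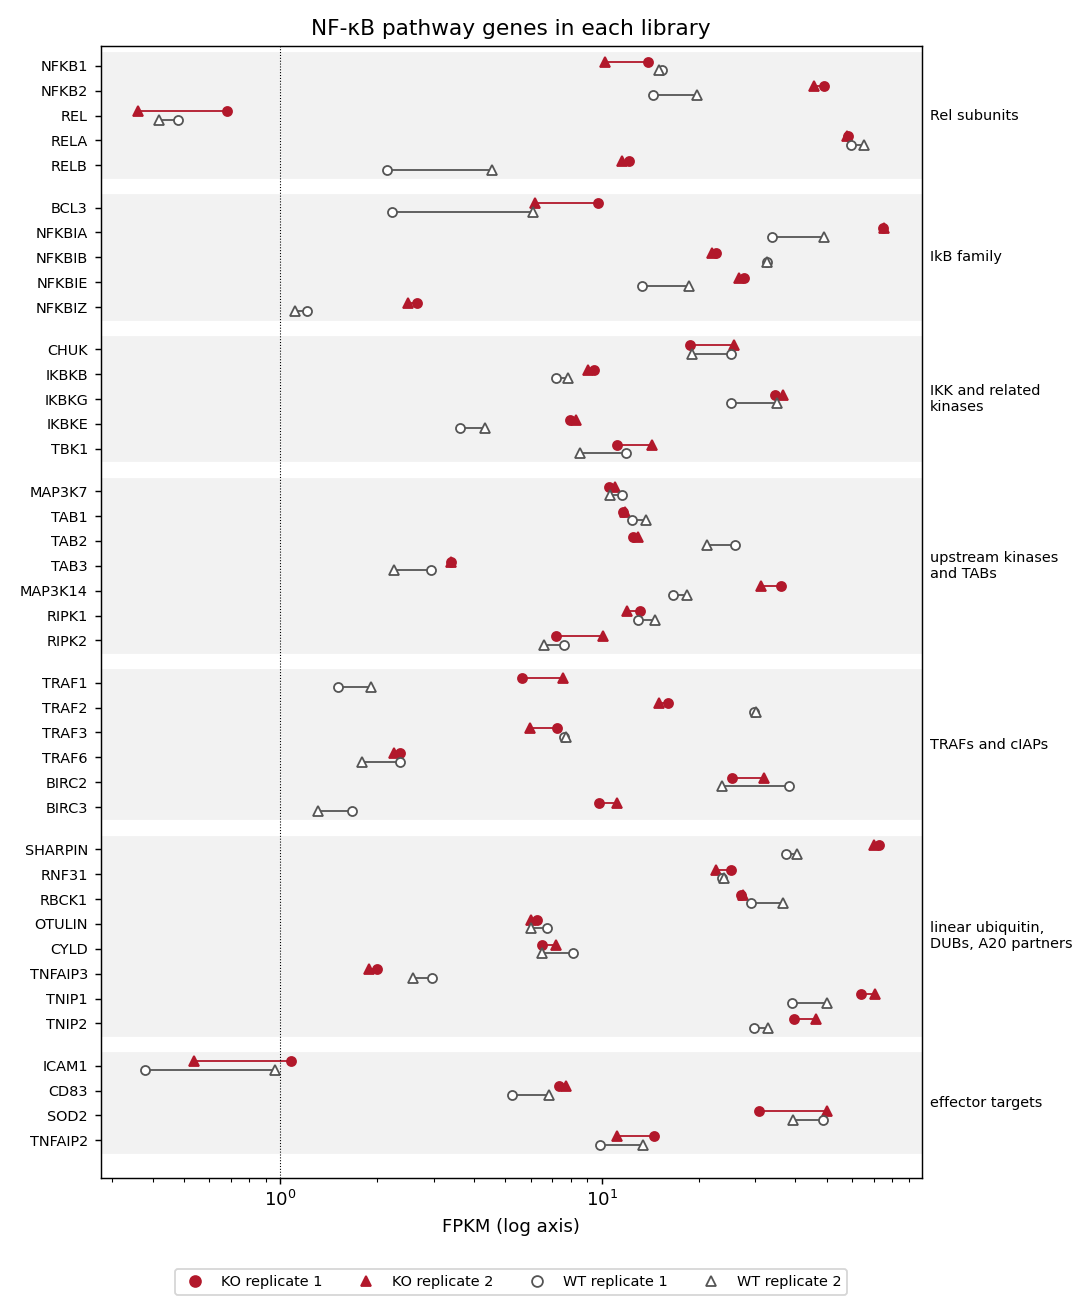
FPKM of each of the 40 genes on a log axis, grouped by role, with KO libraries as filled red symbols and WT libraries as open grey symbols, circles for replicate 1 and triangles for replicate 2, and lines joining replicates. BIRC3 stood at 9.77 and 11.11 FPKM in KO and at 1.67 and 1.31 in WT, the widest gap between the groups, while REL and ICAM1 lay near or under the dotted line at 1 FPKM.

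Of the 4 subunit genes tested, 2 rose and 2 did not pass, beside 16.2% higher and 10.8% lower of all tested genes. NFKB2, which encodes the precursor p100, had 48.96 and 45.58 FPKM in the KO libraries, against 14.41 and 19.76 FPKM in the WT libraries. RELB, its partner, had 12.15 and 11.52 FPKM in KO, against 2.15 and 4.55 in WT. In both genes each KO library lay above each WT library, and the WT libraries differed from each other more than the KO libraries did. Groups without overlap were found in 68.0% of all tested genes. The log2 fold change was 1.43 ± 0.16 (SE) for NFKB2, with an adjusted p of 0.00209, and 1.62 ± 0.25 for RELB, with an adjusted p of 0.00541.

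RELA, the main activating subunit of the canonical branch, had 58.37 and 57.87 FPKM in KO, against 59.49 and 65.29 FPKM in WT. Its log2 fold change was -0.10, with a 95% interval of -0.37 to 0.17 and an adjusted p of 0.545. NFKB1, the precursor of p50, had 13.9 and 10.2 FPKM in KO and 15.39 and 15.05 in WT, a log2 fold change of -0.33 with an interval of -0.72 to 0.06 (adjusted p 0.179). Both KO values of each gene lay under both WT values, but neither difference passed. REL was too low to test, at 0.68 and 0.36 FPKM in KO and 0.48 and 0.42 FPKM in WT.

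Because FPKM is scaled by length, the make-up of the subunit mRNA can be set out within each library. NFKB2 held 36.5% and 36.3% of the summed FPKM of the 5 subunits in KO, against 15.7% and 18.8% in WT. RELB held 9.06% and 9.18% in KO and 2.34% and 4.33% in WT. The share of RELA was 43.5% and 46.1% in KO, against 64.7% and 62.1% in WT. The groups did not overlap in any of these 3 shares, and the shares are not independent of each other, since they sum to the whole. The ratio of NFKB2 to NFKB1 was 3.52 and 4.47 in KO, against 0.936 and 1.31 in WT. That of RELB to RELA averaged 0.204 ± 0.00643 in KO and 0.0529 ± 0.0237 in WT (SD, n = 2 each). With 2 libraries against 2, an exact two-sided permutation test cannot give a p under 0.333, so these ratios stand as descriptions.

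**Figure D2:**
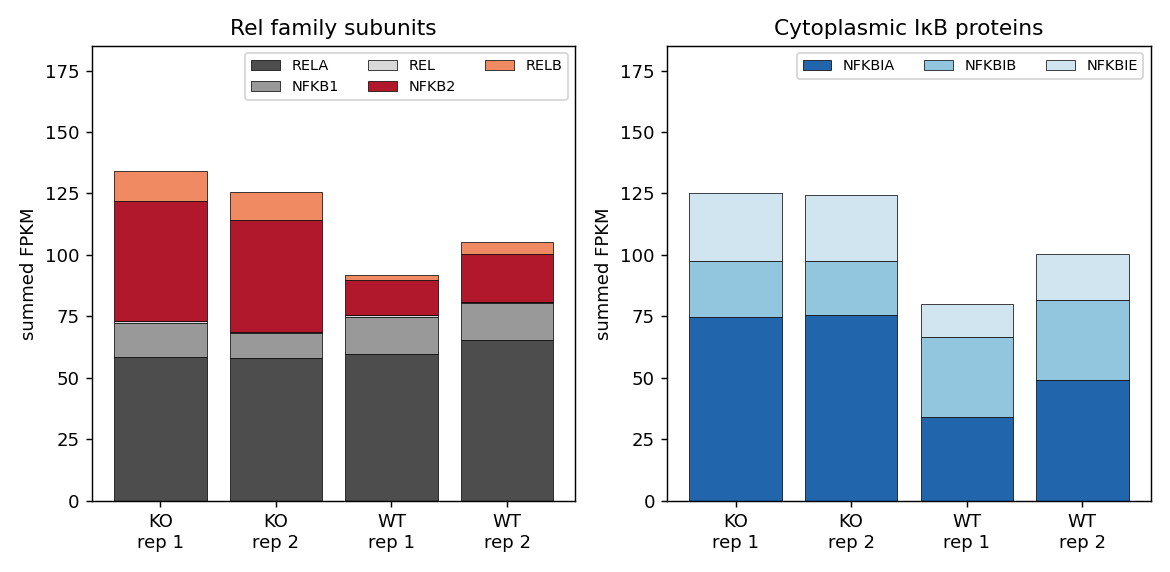
Summed FPKM per library, KO libraries on the left and WT libraries on the right, stacked by Rel family subunit (left panel) and by cytoplasmic IκB gene (right panel). The NFKB2 segment is 48.96 and 45.58 FPKM high in KO and 14.41 and 19.76 in WT, on top of a RELA segment between 57.87 and 65.29 FPKM in all 4 libraries.

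Among the 5 IκB genes, 3 rose, 1 fell and 1 did not pass, beside 16.2% higher and 10.8% lower of all tested genes. NFKBIA encodes IκBα, the inhibitor that is resynthesised after each round of activation, and it had 74.88 and 75.66 FPKM in KO, against 33.84 and 48.96 FPKM in WT. NFKBIE, encoding IκBε, had 27.59 and 26.8 FPKM in KO, against 13.36 and 18.6 in WT. NFKBIZ, which encodes a nuclear cofactor of NF-κB dimers, had 2.65 and 2.49 FPKM in KO and 1.21 and 1.11 in WT. The KO libraries lay above the WT libraries in each of the 3 genes, while 68.0% of all tested genes had groups that did not overlap.

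The log2 fold changes were 0.87 ± 0.17 for NFKBIA (adjusted p 0.0115), 0.75 ± 0.17 for NFKBIE (0.0170) and 0.72 ± 0.14 for NFKBIZ (0.0108). The NFKBIA call was lost when the second KO library (adjusted p 0.0531) or the first WT library (0.0527) was left out, with log2 fold changes of 0.86 and 0.61. The NFKBIZ call was lost when the first KO library was left out (0.69, adjusted p 0.0534). NFKBIE did not pass without either KO library (0.0692 and 0.0710) or without the first WT library (0.0863), with log2 fold changes of 0.73, 0.77 and 0.52.

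NFKBIB, the gene of IκBβ, went the other way, with 22.7 and 22.02 FPKM in KO and 32.65 and 32.62 in WT. It fell by 0.53 on the log2 scale (SE 0.12, adjusted p 0.0177), and the replicates of each group lay within 1 FPKM of each other. Leaving out any 1 of the 4 libraries gave an adjusted p between 0.0509 and 0.0851, with log2 fold changes of -0.55 to -0.51. The summed FPKM of NFKBIA, NFKBIB and NFKBIE was 125 and 124 in KO and 79.9 and 100 in WT. Set against the summed subunits, it was 0.934 and 0.992 in KO and 0.869 and 0.953 in WT, so that the groups overlapped in this ratio.

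BCL3, an atypical IκB that binds p50 and p52 dimers in the nucleus, had 9.73 and 6.18 FPKM in KO and 2.23 and 6.09 in WT. The second WT library nearly reached the second KO library, and the log2 fold change of 0.88 ± 0.35 did not pass (adjusted p 0.103). Leaving out the second WT library gave 1.44 (adjusted p 0.0164), and leaving out the first gave 0.31 (0.449).

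The first WT library was the lower of the pair in 10 of the 12 members that rose, against 68.3% of the 1906 genes called higher and 55.2% of all tested genes. The second KO library was above the first in 6 of the 12. Folds for these genes were therefore mostly larger against the first WT library than against the second.

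The IKK genes, whose products phosphorylate IκB proteins, showed 1 rise among 5 (20% called), beside 27.0% of all tested genes called. IKBKE, an IKK-related kinase that is itself NF-κB inducible, had 7.98 and 8.28 FPKM in KO, against 3.62 and 4.34 FPKM in WT, a log2 fold change of 0.88 ± 0.15 (adjusted p 0.00732). Its relative TBK1 had 11.12 and 14.34 FPKM in KO and 11.91 and 8.55 in WT, and did not pass (0.30, adjusted p 0.284). Of the core complex, the catalytic subunit CHUK (IKKα) had 18.77 and 25.79 FPKM in KO and 25.2 and 19.09 in WT, so that the groups overlapped fully. IKBKB (IKKβ) stood at 9.47 and 9.06 FPKM in KO and 7.2 and 7.86 in WT, and its difference did not pass (0.27, interval -0.06 to 0.60). IKBKG, the regulatory subunit NEMO, averaged 35.6 ± 1.56 FPKM in KO and 30.2 ± 6.97 in WT (SD, n = 2 each). IKBKG shares reads with a near-identical pseudogene copy, so its level is uncertain.

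Upstream of IKK, the gene of the non-canonical kinase NIK rose. MAP3K14 had 36.02 and 31.26 FPKM in the KO libraries and 16.6 and 18.44 FPKM in the WT libraries, a log2 fold change of 0.90 ± 0.14 (adjusted p 0.00497). An antisense gene, MAP3K14-AS1, overlaps 12.3% of its exon bases. It stood at 1.69 and 2.0 FPKM in KO and 1.48 and 2.04 in WT, well under MAP3K14, and no source used here says whether the authors' counting used strand. Genes on the opposite strand also cover 14.7% of the exon bases of TBK1 and 22% of those of ICAM1. Genes on the same strand cover 34.8% of the exon bases of RNF31 and 43.3% of those of REL, an overlap that strand does not resolve, so these values are uncertain.

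TAB2, an adaptor that brings the kinase TAK1 to ubiquitin chains, fell, with 12.48 and 12.91 FPKM in KO, against 25.94 and 21.16 FPKM in WT. It fell by 0.84 on the log2 scale (SE 0.15, adjusted p 0.00761). MAP3K7, which encodes TAK1, had 10.54 and 10.95 FPKM in KO and 11.59 and 10.62 in WT (-0.04, interval -0.36 to 0.28). TAB2 therefore stood at 1.18 times the FPKM of MAP3K7 in both KO libraries, and at 2.24 and 1.99 times in the WT libraries. TAB1, another TAK1 partner, had 11.65 and 11.76 FPKM in KO and 12.38 and 13.75 in WT, and the TAB2 homologue TAB3 had 3.39 and 3.40 in KO and 2.94 and 2.26 in WT. Neither passed. The receptor-interacting kinase gene RIPK1 had 13.15 and 11.97 FPKM in KO and 12.98 and 14.67 in WT (-0.13). RIPK2 had 7.2 and 10.06 FPKM in KO and 7.64 and 6.62 in WT (0.23). Neither of these passed, and their groups overlapped.

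The TRAF and cIAP genes held both the largest rise and the largest fall among the tested members. BIRC3, which encodes the ubiquitin ligase cIAP2, had 9.77 and 11.11 FPKM in KO, against 1.67 and 1.31 FPKM in WT. TRAF1, an inducible adaptor that binds TRAF2, had 5.65 and 7.55 FPKM in KO and 1.51 and 1.91 in WT. TRAF2, the adaptor that recruits the cIAPs to receptors and to NIK, had 16.01 and 15.1 FPKM in KO, against 29.73 and 30.2 FPKM in WT. None of these 3 genes showed overlap between the groups, which also held for 68.0% of all tested genes.

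BIRC3 rose by a log2 value of 2.20 ± 0.16 (adjusted p 0.000489), 7.01 times by the ratio of mean FPKM, and TRAF1 rose by 1.48 ± 0.18 (adjusted p 0.00243). TRAF2 fell by 0.90 (SE 0.12, adjusted p 0.0038). BIRC2, which encodes cIAP1 and lies next to BIRC3 on chromosome 11, had 25.4 and 31.88 FPKM in KO and 38.23 and 23.56 in WT. Its groups overlapped and it did not pass (-0.08, interval -0.60 to 0.45). BIRC3 was 0.385 and 0.348 of the BIRC2 level in KO, against 0.0437 and 0.0556 in WT.

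TRAF3, which holds NIK for degradation, had 7.23 and 5.97 FPKM in KO and 7.61 and 7.71 in WT, and its difference did not pass (-0.19, interval -0.55 to 0.16). TRAF6, the adaptor of interleukin-1 and Toll-like receptors, averaged 2.30 ± 0.0778 FPKM in KO and 2.08 ± 0.403 in WT (SD, n = 2 each) and did not pass either. The ratio of MAP3K14 to TRAF2 was 2.25 and 2.07 in KO, against 0.558 and 0.611 in WT, and that of MAP3K14 to TRAF3 was 4.98 and 5.24 in KO, against 2.18 and 2.39 in WT. These ratios restate the differences of the single genes and stand as descriptions.

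**Figure D3:**
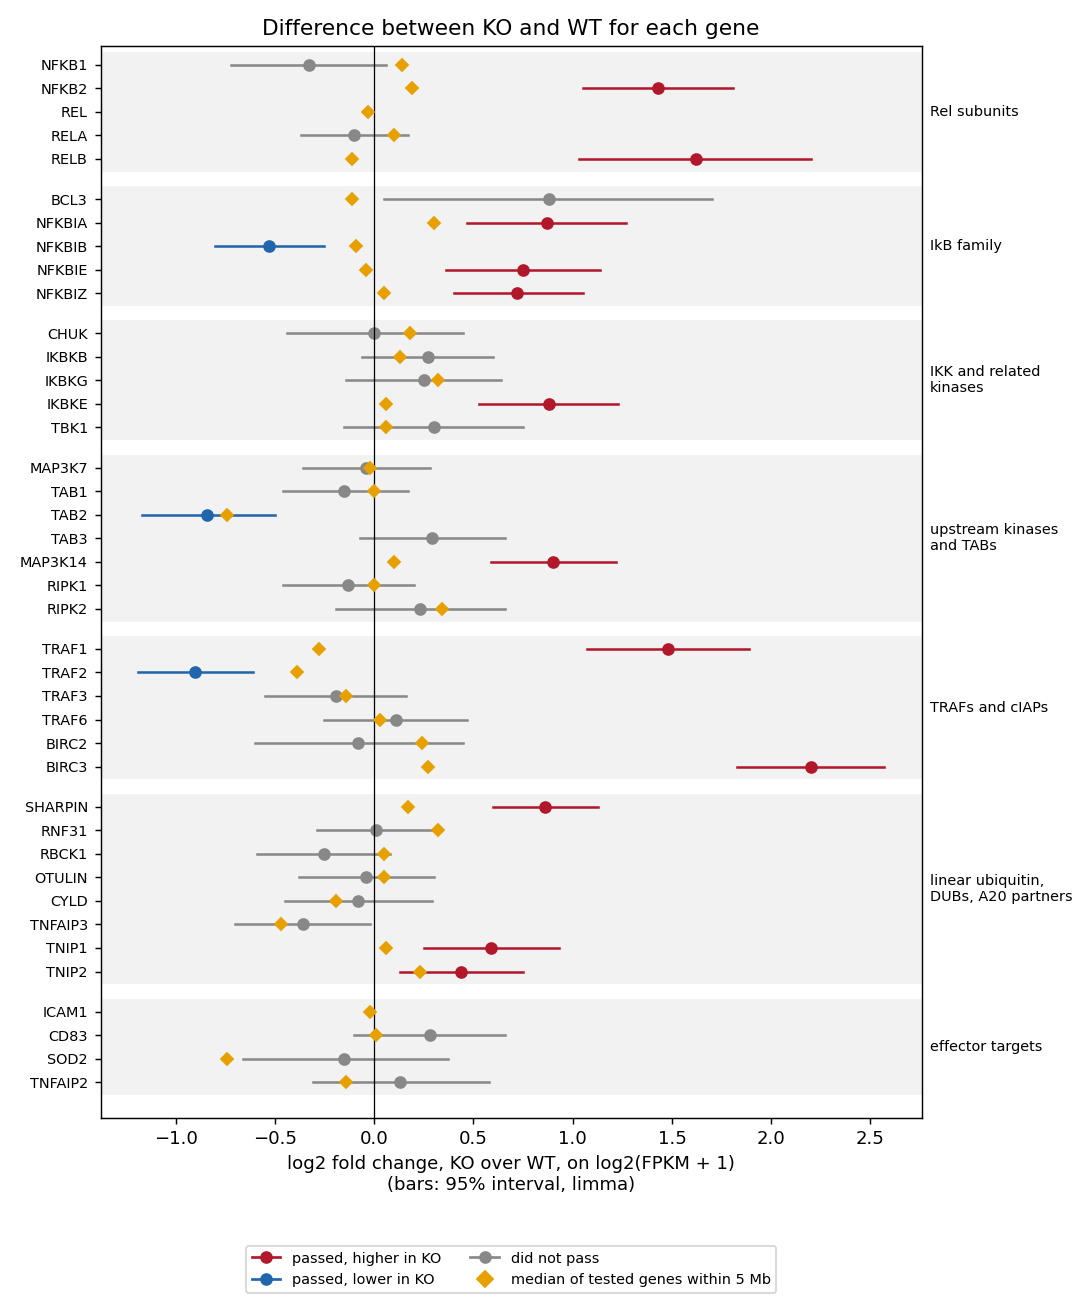
Log2 fold change of KO over WT for the 38 tested genes by role, with 95% intervals, red where the gene passed and was higher, blue where it passed and was lower and grey otherwise; orange diamonds give the median log2 fold change of the other tested genes within 5 Mb (genes with at least 9 such neighbours). TAB2 lies beside its neighbours' median of -0.74, whereas BIRC3, NFKB2, RELB and TRAF1 lie far above theirs.

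Of the 8 genes that build, read or trim ubiquitin chains, 3 rose and 5 did not pass. Over all tested genes, 16.2% were higher and 10.8% lower. SHARPIN, a subunit of the linear ubiquitin ligase LUBAC, had 72.79 and 70.23 FPKM in KO, against 37.28 and 40.47 FPKM in WT, a log2 fold change of 0.86 ± 0.12 (adjusted p 0.00337). The catalytic subunit RNF31 had 25.24 and 22.62 FPKM in KO and 23.58 and 24.03 in WT (0.01, interval -0.29 to 0.30). RBCK1, the remaining subunit, had 27.11 and 27.43 in KO and 29.16 and 36.61 in WT (-0.25, adjusted p 0.220). SHARPIN therefore stood at 2.88 and 3.10 times the level of RNF31 in KO, and at 1.58 and 1.68 times in WT.

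TNIP1 and TNIP2 encode ABIN proteins, which bind ubiquitin and help the deubiquitinase A20 restrain the pathway. TNIP1 had 63.97 and 70.99 FPKM in KO and 39.15 and 50.13 in WT, a log2 fold change of 0.59 ± 0.15 (adjusted p 0.0232). TNIP2 had 39.63 and 46.25 FPKM in KO and 29.81 and 32.84 in WT (0.44 ± 0.13, adjusted p 0.0443). The TNIP1 call was lost without either KO library (0.0508 and 0.104) or the first WT library (0.137), with log2 fold changes of 0.67, 0.52 and 0.42. TNIP2 passed in none of the 4 fits that left out a library (adjusted p 0.0518 to 0.199, log2 fold changes 0.33 to 0.55), nor after scaling (0.37, adjusted p 0.0694).

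A20 itself is encoded by TNFAIP3, a feedback gene. It had 1.99 and 1.88 FPKM in KO and 2.96 and 2.59 in WT, a log2 fold change of -0.36 with an interval of -0.70 to -0.02, and it did not pass (adjusted p 0.103). Both KO values lay under both WT values. Of the other deubiquitinase genes, CYLD had 6.49 and 7.21 FPKM in KO and 8.12 and 6.52 in WT (-0.08). OTULIN had 6.29 and 6.03 FPKM in KO and 6.76 and 6.01 in WT (-0.04). Neither passed, and the groups overlapped in both.

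None of the 3 effector genes tested passed in limma, beside 27.0% of all tested genes. At an unadjusted p under 0.05 in limma the count was also 0, beside 24.6% higher and 16.7% lower of all tested genes. ICAM1, an adhesion molecule induced by NF-κB, was too low to test, at 0.38 to 1.08 FPKM over the 4 libraries. SOD2, the mitochondrial superoxide dismutase, had 30.9 and 50.08 FPKM in KO and 48.7 and 39.25 in WT, the widest gap between KO libraries of any member. CD83 lay between 5.26 and 7.71 FPKM (0.28, adjusted p 0.231), and TNFAIP2 lay between 9.87 and 14.48 FPKM (0.13, adjusted p 0.623). An annotated SOD2 gene model shares 44.6% of its exon bases with ACAT2 and 5.43% with WTAP on the opposite strand, and 36.7% with SOD2-OT1 on the same strand, so the SOD2 value is uncertain.

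Position on the chromosome moved with some of these values. The microRNA precursor lies on chromosome 6 from 134979338 to 134979432 (GRCh38), and TNFAIP3, TAB2 and SOD2 start 2.89, 14.2 and 24.7 Mb beyond it. Of the other tested genes within 5 Mb of TAB2, 67.9% of 28 fell and none rose, with a median log2 fold change of -0.74, beside -0.84 for TAB2 itself. Around TNFAIP3 the median was -0.47 over 24 genes, beside -0.36 for TNFAIP3, and around SOD2 it was -0.74 over 23 genes, beside -0.15 for SOD2.

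On distal chromosome 9 the neighbours of TRAF2 had a median of -0.39 over 81 genes, of which 44.4% fell and 7.41% rose. Those of TRAF1, on the same arm, had a median of -0.28 over 39 genes, beside a rise of 1.48 for TRAF1. The medians around the other 34 members with at least 9 neighbours lay between -0.19 and 0.34. The neighbours of NFKB2 had a median of 0.19, those of RELB -0.11, of MAP3K14 0.10, of BIRC3 0.27 and of SHARPIN 0.17. The part of chromosome position in the differences of TAB2, TRAF2, TNFAIP3 and SOD2 was not tested.

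**Figure D4:**
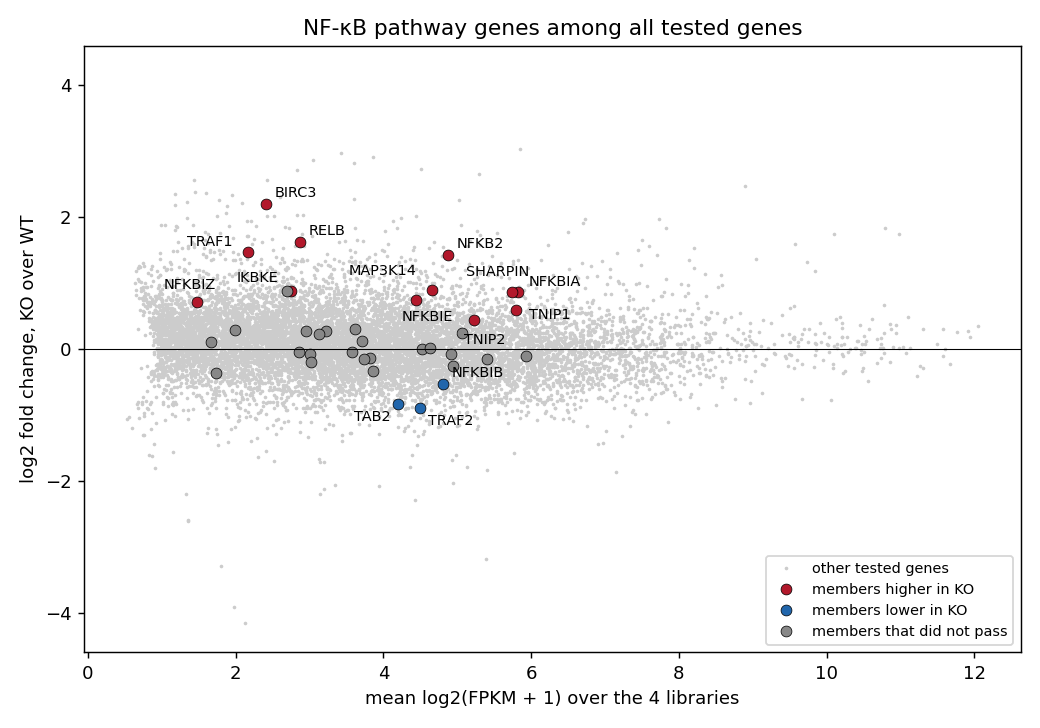
Log2 fold change of KO over WT against the mean log2(FPKM + 1) of the 4 libraries for all 11786 tested genes (small grey points), with the 12 members that rose in red, the 3 that fell in blue and the 23 that did not pass in dark grey. BIRC3, at 2.20, and RELB, at 1.62, lie highest among the members, while other genes at a level near that of RELB lie higher, such as AKR1C3 at 2.87. Most members lie within the cloud of grey points.

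The microRNA named in the labels was read against these transcripts as a description of sequence only. Its mature form (RefSeq, GRCh38.p14, chr6:134979355-134979378, minus strand) is shown with its seed, bases 2 to 8, in capitals.
hsa-miR-3662: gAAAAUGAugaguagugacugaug

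A 7-base match to that seed, TCATTTT on the transcript strand, was found in the longest annotated 3′ UTR (GENCODE 29) of 15 of the 40 members (37.5%), against 3633 of 10851 tested genes (33.5%). It was found in 1 of the 12 members that rose (8.33%), in none of the 3 that fell, in 13 of the 23 that did not pass (56.5%) and in 1 of the 2 not tested. The median 3′ UTR was 789 bases long in the members that rose and 1848 in those that did not pass (831 in those that fell), and the part of length in these counts was not tested. NFKBIA was the only member with a match that rose; its site and those of 2 feedback or subunit genes that did not pass are shown with the match in capitals and its first base counted from the start of the 3′ UTR.
NFKBIA, 160: taggatcagcccTCATTTTgttgcttt
TNFAIP3, 119: ctatgacagccaTCATTTTgtaccctt
TNFAIP3, 1658: ccccgcctgtgaTCATTTTggcaatgc
NFKB1, 384: ctgaccacagcaTCATTTTgcattcaa

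Genes upstream of the pathway and its secreted products were read from the same fit. Of 40 listed receptors, adaptors and ubiquitin factors, 31 were tested, 4 rose and 3 fell (22.6% called, median log2 fold change 0.17), against 27.0% called and a median of 0.07 over all tested genes. SQSTM1, the scaffold p62 that binds TRAF6, had 411.4 and 435.31 FPKM in KO and 93.44 and 120.59 in WT (log2 fold change 1.98, adjusted p 0.000434). IRAK2, a kinase of interleukin-1 receptor signalling, had 12.01 and 13.07 FPKM in KO and 3.73 and 5.44 in WT (1.29, adjusted p 0.00398). PELI1, a ubiquitin ligase of the IRAK complex, had 1.29 and 0.98 FPKM in KO and 2.18 and 2.1 in WT (-0.56, adjusted p 0.0293), and UBE2V1, a partner of the ubiquitin-conjugating enzyme that works with TRAF6, had 141.36 and 128.97 in KO and 173.69 and 182.94 in WT and fell by 0.40 (adjusted p 0.0314). UBE2V1 shares exons with a readthrough gene, so its level is uncertain. The remaining calls, named after their values were seen, were rises of TRADD (0.68) and TAX1BP1 (0.65) and a fall of TNFRSF12A (-0.36).

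The PELI1 call was lost without any 1 of the 4 libraries (adjusted p 0.0593 to 0.164, log2 fold changes -0.67 to -0.46) and that of UBE2V1 without the second KO library (0.106) or either WT library (0.111 and 0.169), with log2 fold changes of -0.33, -0.44 and -0.36. Without the second KO library or the first WT library, 2 genes of this list rose, and leaving out any 1 library left at most 1 that fell. The list holds 4 receptors known to feed the non-canonical branch, grouped so after their values were seen. TNFRSF12A (Fn14) fell, with 149.93 and 150.24 FPKM in KO, against 183.98 and 202.77 in WT (-0.36, adjusted p 0.0409), a call that was lost when any 1 library was left out. CD40 (-0.03, adjusted p 0.894), LTBR (0.04, 0.824) and TNFRSF11A (-0.04, 0.873) did not pass.

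Of 32 secreted, surface and survival targets, 17 were tested, 6 rose and none fell (35.3% called, median 0.45), against 16.2% higher and 10.8% lower over all tested genes. This list, too, was chosen with earlier results of these data known, so its share is a description. At an unadjusted p under 0.05 the limma fit gave 8 higher and 0 lower, beside 24.6% and 16.7% of all tested genes. The rises with the smallest p were those of the colony-stimulating factor genes. CSF1 had 207.44 and 129.75 FPKM in KO, against 14.96 and 24.67 FPKM in WT (log2 fold change 3.03, adjusted p 0.00098). CSF2, the gene of GM-CSF, had 13.85 and 11.34 FPKM in KO, against 0.98 and 2.77 FPKM in WT (log2 fold change 2.31, adjusted p 0.0026). The other 4 rises, named after their values were seen, were those of IL6 (0.56), LIF (0.55), PLAU (0.80) and IRF1 (1.04). IL6 lay near the filter, at 1.07 and 1.04 FPKM in KO and 0.33 and 0.46 in WT. The remaining 11 tested targets did not pass. PTX3 (0.57), CXCL8 (0.57), CXCL2 (0.45), CCL5 (0.28), GADD45B (0.11), CXCL1 (0.09), CFLAR (0.07) and CEBPB (0.05) lay above 0. IER3 (-0.06), BCL2L1 (-0.20) and MMP1 (-0.26) lay under it. The cytokine genes TNF, IL1A and IL1B were listed below the filter. TNF did not exceed 0.02 FPKM in KO or 0.05 FPKM in WT. Without either KO library or without the first WT library 3 genes of this list rose.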

How the data were processed

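The authors deposited FPKM, 1 value for each gene in each library with 2 decimals, as the file headers name it. Per the labels' protocols, RNA was taken up in Trizol and libraries were made with an Illumina TruSeq RNA kit. The submitters' processing notes name HISAT, StringTie, Cufflinks and GATK and the build hg38, without roles or versions. No source used here gives read counts or depth. Ratios of low values were compared with the first WT library: at most 16 of 78 genes shared a ratio within 3%, so no relative depth is stated.

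Testing was on log2(FPKM + 1), for genes that reached 1 FPKM in 2 or more libraries, so fold changes of low genes are understated. limma 3.58.1 (R 4.3.3) was run with its trend option. P-values were adjusted by Benjamini-Hochberg across the 11786 genes, and calls were made under an adjusted 0.05. The fit was tested on simulated data. The KO label groups follow the sample labels. Members, roles and lists were chosen with earlier results of these data known. All members that passed are described with the value in each library. Members that did not pass are given by library or by group mean where their role holds a member that passed or where every library reached 10 FPKM, and by range otherwise. Of each further list the 2 rises and 2 falls with the smallest p are named, and further genes were named after their values were seen. Positions came from the RefSeq table of GRCh38.p14, in which 19694 of 20804 gene identifiers were found, and neighbours are tested genes starting within 5 Mb. Python 3.11.15, pandas 2.3.3 and matplotlib 3.10.9 were used. 11 alternatives were planned and 2 were added after seeing the data, a GC correction and a crossed pairing.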

Additional observations from a re-analysis of the deposited data

How the results depend on the processing

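No member that passed changed direction under any of the 13 alternatives tried, and 4 of 15 passed under all those that kept them. Without the filter on low values 3 members rose and 1 fell, 1 receptor or adaptor gene rose and 0 fell, 1 secreted or surface target rose, and 290 and 235 of all genes rose and fell; far more low genes enter that fit. Leaving out 1 library gave 8 to 12 members higher and 2 lower, 2 to 4 receptor and adaptor genes higher and 0 to 1 lower, 3 to 5 targets higher, and 845 to 1183 genes higher and 509 to 824 lower. Without the trend 1 receptor or adaptor gene fell, and after the GC correction 1932 of all genes fell; the cause was not tested.

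Values that changed sign all belonged to members that did not pass. After scaling CHUK (-0.06) and RNF31 (-0.06) changed sign, and after the GC correction CHUK (-0.24) and TRAF6 (-0.01) did. Over the fits that left out 1 library, log2 fold changes ran between -0.21 and 0.22 for CHUK, -0.10 and 0.02 for MAP3K7, -0.02 and 0.24 for TRAF6, -0.41 and 0.26 for BIRC2, -0.07 and 0.08 for RNF31, -0.12 and 0.03 for OTULIN, -0.22 and 0.06 for CYLD, -0.49 and 0.19 for SOD2 and -0.07 and 0.34 for TNFAIP2, each range crossing or reaching 0.

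The replicate numbers are shared by KO and WT, but nothing says that they pair the libraries. Deviations of same-numbered libraries from their group means correlated at -0.177 over tested genes. With the replicate number as a block 12 members rose and 3 fell, with BCL3 passing (adjusted p 0.0449) and TNIP2 not (0.0554). With crossed pairing 13 members rose and 3 fell. The depth is unknown, so how far it limits REL and ICAM1, both too low to test, cannot be stated.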
